A study of Drosophila melanogaster with 23 samples.

Results

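The promoters of 88 nuclear genes of oxidative phosphorylation were examined for Mzfp1 binding in Drosophila melanogaster. The 88 genes are all annotated nuclear protein-coding genes whose symbol starts with ND-, COX, UQCR-, ATPsyn or Sdh, out of 13968 protein-coding genes on the X, 2L, 2R, 3L, 3R, 4 and Y chromosomes. They divide into 40 genes of complex I, 8 of complex II, 9 of complex III, 16 of complex IV and 15 of complex V. For 24 of the 88, the symbol ends in L, L1 or L2 and marks a paralogue of another subunit gene; the other 64 are called main subunit genes. A gene was called bound in a list when a listed region overlapped the 200 bp on either side of one of its annotated transcription start sites (TSSs). The symbol rule also takes in Sdhaf3, which encodes an assembly factor of complex II, and leaves out 10 subunit and cytochrome c genes with other symbols, which are described near the end.

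Mzfp1 (CG1603) is a Drosophila protein with MADF domains and C2H2 zinc fingers. Its binding was mapped by chromatin immunoprecipitation and sequencing (ChIP-seq) in whole animals, and 10 lists of bound regions were analysed, drawn from 18 ChIP libraries. Adult flies were 2 to 3 days old. Transgenic adults carried an HA-tagged Mzfp1 cDNA under the ubiquitously active Ubi-p63E promoter at a defined site, over the TM6 balancer. Per the study's genotypes they also carried the CG1603 deletion over the CyO balancer, so an endogenous copy of the gene was kept. The transgenes were ΔM2-HA, without the second MADF domain, Δ42-HA, without one of the regions that contact CP190, ΔZF-HA, without zinc fingers 3 to 6 of the C-terminal cluster, and full-length wt-HA. By the study's immunoblots ΔM2-HA protein was more abundant and Δ42-HA protein less abundant than wt-HA protein, and wt-HA adults held more Mzfp1 than y1w1118 adults. All 4 transgenic lines were precipitated with anti-HA. Anti-Mzfp1 was used for the lines other than ΔZF-HA and for y1w1118 adults, which carry no transgene. In the transgenic lines the anti-Mzfp1 antibody could also take the endogenous protein. Chromatin of y1w1118 embryos was precipitated with a rat and with a rabbit anti-Mzfp1 antibody.

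Oxidative phosphorylation passes electrons from NADH and succinate through complexes I to IV of the mitochondrial inner membrane to oxygen, and complex V uses the proton gradient this builds to make ATP. Most subunits are encoded in the nucleus by scattered, broadly active housekeeping genes. Many of the Drosophila paralogues are known for expression in the testis.

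Each adult list was made from 2 libraries and each embryo list from 1, so no list has a spread between replicates, and the read depth is unknown here. The 95% Wilson intervals given for shares cover counting error over genes only, and neighbouring genes can share a region. The lists held 574 to 6245 regions in transgenic adults, 1670 in y1w1118 adults, and in embryos 788 (rat antibody) and 117 (rabbit antibody). Strength is the fold enrichment over control in column 7 of each list. Its scale differs between lists, so strengths are compared across lists only by rank or by percentile, the percentage of the list's regions with the same or a lower value, itself included. A percentile also depends on how many weak regions a list holds, so lists of unlike length are compared by rank. A gene without a region had none that passed the authors' threshold, which is not the same as no Mzfp1 there. The lists of the HA-tagged variants with anti-HA (6216 to 6245 regions) stood apart in length from the wt-HA list of the same antibody (574). For ΔZF-HA the study reports neither true peaks nor significant signals, so a region in that list need not be a bound site.

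Promoters of 5 genes with strong regions are shown, from complexes I, III, IV and V. In each, the summit of the region in y1w1118 adults, its point of highest signal, lay within the stretch shown, and the stretch held none of the 3 known promoter words searched for. The words were TATCGATA, the site of the DNA replication-related element factor, Motif 1, the site of the zinc-finger protein M1BP, and the NRG element of Drosophila nuclear respiratory genes, each on both strands. Lines give the 120 bases before the TSS on the gene's strand, from the dm6 assembly (RefSeq), with none of the words and hence no capitals; none of these stretches touches an annotated exon.
ATPsynC: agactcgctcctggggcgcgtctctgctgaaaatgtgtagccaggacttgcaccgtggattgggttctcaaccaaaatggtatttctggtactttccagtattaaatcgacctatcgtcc
UQCR-11: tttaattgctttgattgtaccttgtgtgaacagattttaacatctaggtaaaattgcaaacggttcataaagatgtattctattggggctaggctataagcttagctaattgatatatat
ND-AGGG: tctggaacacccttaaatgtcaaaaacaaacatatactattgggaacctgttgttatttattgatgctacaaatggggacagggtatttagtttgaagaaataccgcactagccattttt
COX8: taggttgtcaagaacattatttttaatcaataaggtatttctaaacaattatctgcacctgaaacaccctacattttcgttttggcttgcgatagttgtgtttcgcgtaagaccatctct
ND-49: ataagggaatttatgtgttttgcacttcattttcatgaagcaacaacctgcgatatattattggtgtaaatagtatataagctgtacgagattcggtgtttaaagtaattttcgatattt
They lie at chr3R:31219631-31219750 on the minus strand, chr3L:25120589-25120708 and chr3L:24976134-24976253 on the plus strand, chr3L:21539448-21539567 and chr4:570791-570910 on the minus strand. The summits fall 96, 35, 41, 28 and 76 bp before the TSS.

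In wt-HA adults with anti-Mzfp1, 23 of the 88 genes were bound (26.1%, 18.1 to 36.2%), against 14.5% of the 13880 other protein-coding genes. In y1w1118 adults, 20 genes were bound (22.7%, 15.2 to 32.5%), against 14.6% of other genes. All 20 were main subunit genes, 31.2% of the 64 (21.2 to 43.4%), and none of the 24 paralogues was bound, which allows a share of up to 13.8%. Both shares lay above that of other genes, by 11.6 points in wt-HA adults (interval of the difference 3.55 to 21.7) and by 8.12 points in y1w1118 adults (0.594 to 17.9).

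The same direction was seen in most of the other lists. With anti-Mzfp1, 18 genes were bound in ΔM2-HA adults (20.5%, 13.3 to 30.0%), against 12.8% of other genes. In Δ42-HA adults 25 genes were bound (28.4%, 20.0 to 38.6%), the highest share of the 10 lists, against 16.6% of other genes. With anti-HA, 19 genes were bound for ΔM2-HA (21.6%, 14.3 to 31.3%), against 16.5% of other genes. In Δ42-HA adults with anti-HA 19 genes were also bound (21.6%), against 14.1% of other genes. With the summit required in the window only 6 were (6.82%), against 6.64% of other genes. In wt-HA adults with anti-HA 9 genes were bound (10.2%, 5.47 to 18.3%), against 3.54% of other genes. In embryos 9 genes were bound with the rat antibody (10.2%), against 5.87% of other genes, and 2 genes with the rabbit antibody (2.27%, 0.625 to 7.91%), against 0.713%. The ΔZF-HA list ran the other way: 1 gene was bound (1.14%, 0.201 to 6.16%), against 5.09% of other genes. The interval of the difference spanned 0 in ΔM2-HA and ΔZF-HA adults with anti-HA and in both embryo lists.

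**Figure D1:**
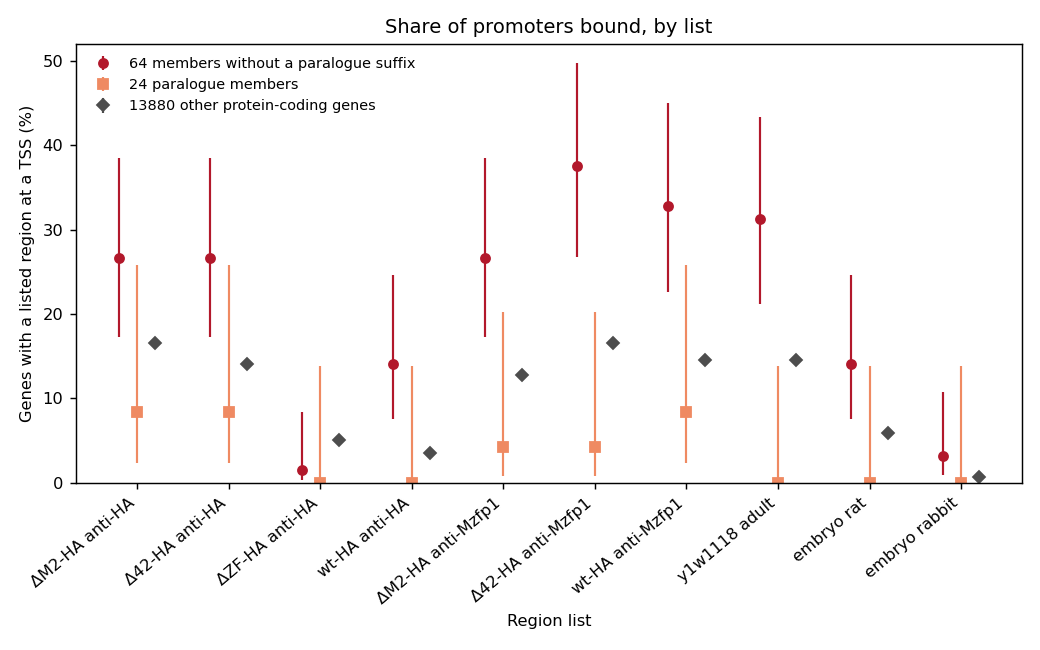
Percentage of genes with a listed region within 200 bp of a TSS (y axis) in each of the 10 lists (x axis). Points are the 64 main subunit genes (circles), the 24 paralogues (squares) and the 13880 other protein-coding genes (diamonds), with 95% Wilson intervals for counting error; members in the legend are the 88 genes. The main subunit genes lie above other genes in every list but ΔZF-HA, and reach 37.5% in Δ42-HA adults with anti-Mzfp1, where the paralogues are at 4.17%.

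Genes of pericentromeric heterochromatin and chromosome 4 carried part of this difference. The 88 genes include 6 such genes: UQCR-11, ND-AGGG and ND-MLRQ in the heterochromatin of 3L, the paralogue COX4L in that of 2R, and ATPsynbeta and ND-49 on chromosome 4. In y1w1118 adults 5 of these 6 were bound, against 97 of the 230 other genes of these regions (42.2%). Without genes of these regions, 15 of 82 genes were bound in y1w1118 adults (18.3%), against 14.1% of other genes, and the difference was 4.15 points. In wt-HA adults with anti-Mzfp1 it was 8.08 points, with 18 of 82 genes bound, against 13.9% of other genes. With anti-HA the difference was 0.0295 points for the ΔM2-HA list, 2.41 points for Δ42-HA adults and 2.06 points for wt-HA adults. This leaving-out was chosen after the data had been seen.

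Over all lists, 34 of the 88 genes were bound at least once (38.6%), against 30.8% of other genes, and 54 were bound in none. The bound genes were 31 of the 64 main subunit genes (48.4%) and 3 of the 24 paralogues (12.5%). No gene of the 88 was bound in all 10 lists, and 61 of the 13880 other genes were. This was so rare among other genes that its absence among 88 genes does not set them apart. ATPsynC and UQCR-11 were bound in 9 lists each, and 9 of the 88 genes in 7 or more (10.2%), against 3.49% of other genes.

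**Figure D2:**
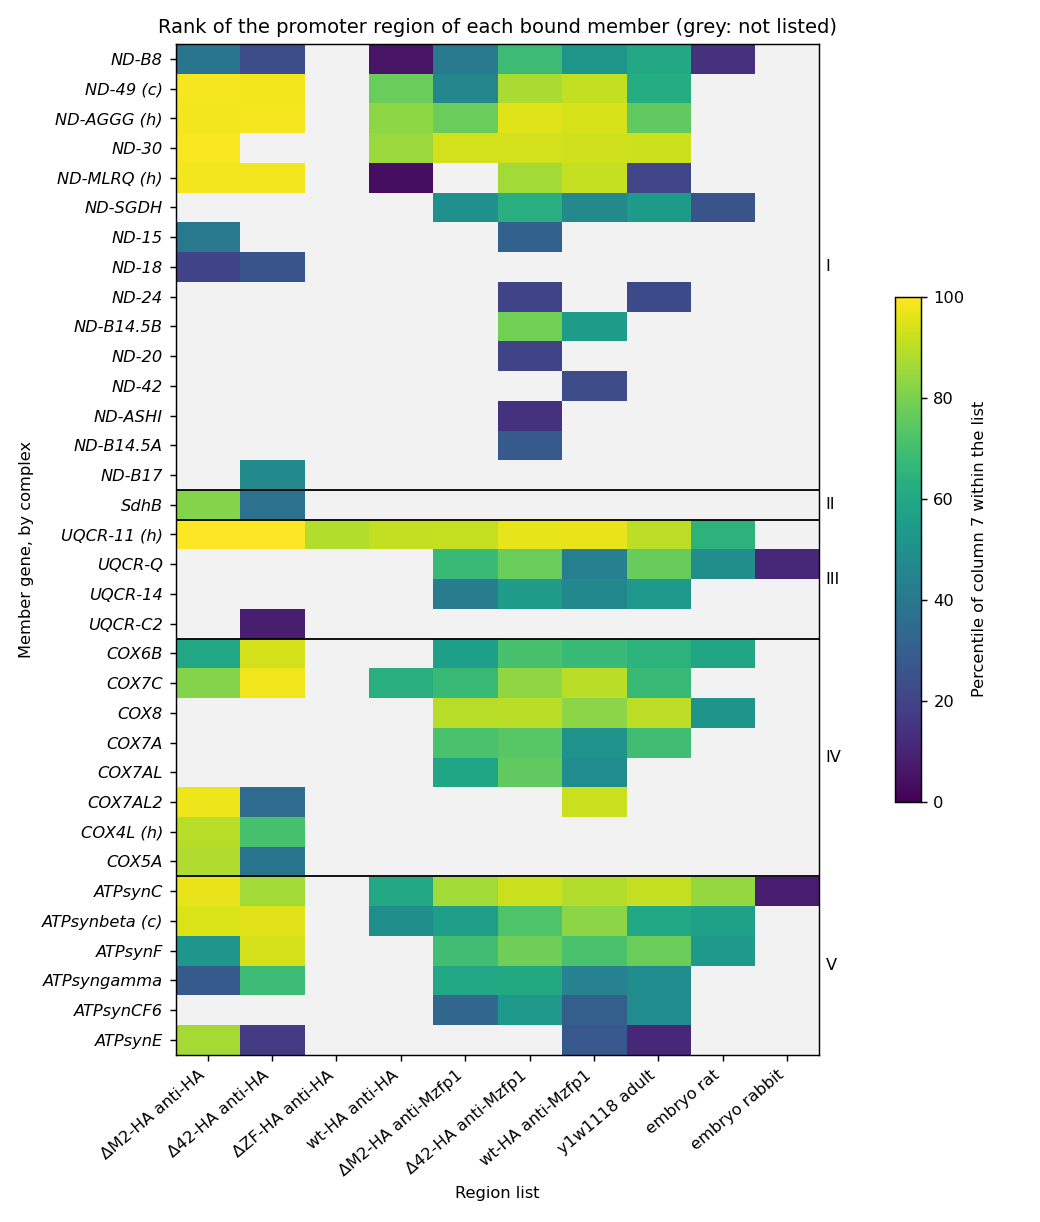
Percentile of column 7 within the list (colour, 0 to 100) for the 34 bound genes (rows, by complex I to V) in the 10 lists (columns). Grey cells mark genes with no listed region, (h) marks heterochromatin and (c) chromosome 4. UQCR-11 fills 9 cells and complex II has a single row, SdhB, with 2 cells.

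Bound promoters had a higher median rank than other bound genes in the 8 lists with enough bound genes for an interval, but the interval of the difference spanned 0 in 6 of them. The exceptions were y1w1118 adults (difference 11.0 percentile points, 1.02 to 24.6) and Δ42-HA adults with anti-Mzfp1 (19.8 points, 6.50 to 29.0). These intervals come from the order statistics of the bound genes, with the median of other genes taken as fixed. The median percentile of bound genes was 63.2 in y1w1118 adults (quartiles 52.1 and 77.0), against 52.2 for other bound genes (27.1 and 76.4). It was 67.2 in wt-HA adults with anti-Mzfp1, against 53.0, but 52.1 against 50.6 without heterochromatin and chromosome 4. It was 74.2 in Δ42-HA adults with anti-Mzfp1, against 54.4. In ΔM2-HA adults it was 63.8 with anti-Mzfp1, against 55.4, and 87.9 with anti-HA, against 62.2 (interval of the difference -9.72 to 36.0). In Δ42-HA adults with anti-HA it was 70.9, against 66.1, but 38.7 against 62.9 without those genes. The medians were close in wt-HA adults with anti-HA, at 63.2 against 62.7, and in embryos with the rat antibody, at 54.1 against 50.5. The 2 genes bound with the rabbit antibody ranked low in that list, at percentiles 7.69 and 11.1. Of the 20 genes bound in y1w1118 adults, 7 lay above percentile 75 of the list, against 26.5% of other bound genes.

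The strongest genes of complex V in y1w1118 adults were ATPsynC and ATPsynF. ATPsynC (FBgn0039830) encodes subunit c, whose ring rotates in the membrane as protons pass. Its TSS on 3R had a region at chr3R:31219155-31219936 (dm6) in y1w1118 adults, with a summit 96 bp upstream and no other protein-coding TSS window within reach. The region had a fold enrichment of 12.6 and ranked 149 of 1670. With anti-Mzfp1 its percentile was 86.3 in ΔM2-HA adults and 91.8 in Δ42-HA adults, against 88.4 in wt-HA adults. Its percentile in y1w1118 adults was 91.1. With anti-HA it ranked 212 of 6245 for ΔM2-HA and 867 of 6216 for Δ42-HA, against 234 of 574 in wt-HA adults, and no region passed in ΔZF-HA adults. In embryos it was the strongest of the 88 genes with the rat antibody (rank 125 of 788, fold enrichment 6.23) and ranked 109 of 117 with the rabbit antibody (fold enrichment 4.17).

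Of the other complex V genes, ATPsynF, a subunit of the membrane part, ranked 375 of 1670 in y1w1118 adults with a fold enrichment of 6.24. ATPsynbeta, the catalytic subunit, lies on chromosome 4 and was bound in 8 lists, with a rank of 679 of 1670 in y1w1118 adults. With anti-HA it ranked above ATPsynF in ΔM2-HA adults (365 against 2970 of 6245), and above ATPsynF and ATPsynC in Δ42-HA adults (266 of 6216, with ATPsynF at 398). In wt-HA adults with anti-Mzfp1 it ranked 294 of 1699 and ATPsynF 490. The summits behind these ATPsynbeta ranks in transgenic adults lay nearest to the TSS of CG11076. They were 15 bp from it in both variant anti-HA lists and 7 bp in wt-HA adults with anti-Mzfp1. In y1w1118 adults the ATPsynbeta TSS was nearest, at 45 bp. The ATPsynF summits in ΔM2-HA and Δ42-HA adults with anti-HA lay nearest to CG3548, at 203 and 210 bp. ATPsyngamma, the rotating central stalk, ranked 856 of 1670, and its summit lay 1 bp from the TSS of its neighbour yata. ATPsynCF6 and ATPsynE completed the 6 bound genes of complex V, at ranks 857 and 1477. The remaining main subunit genes ATPsynB, ATPsynD, ATPsynG, ATPsynO and ATPsyndelta were bound in no list.

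Among the 9 complex III genes, UQCR-11 (FBgn0260008), a small subunit, was bound in every list but the rabbit embryo list. It lies in 3L heterochromatin, its region in y1w1118 adults was chr3L:25120331-25120914, and the summit lay 35 bp upstream of the TSS. Fold enrichment was 11.6 in y1w1118 adults, rank 166 of 1670. With anti-Mzfp1 it ranked 141 of 1620 for ΔM2-HA and 79 of 2008 for Δ42-HA, against 56 of 1699 in wt-HA adults, with summits 36 to 58 bp upstream of the TSS. In the anti-HA lists of ΔM2-HA adults (rank 18 of 6245) and Δ42-HA adults (rank 21 of 6216) the window was covered by a broad region, 5632 and 5869 bp wide. The summits of these broad regions lay 4737 and 4732 bp upstream of UQCR-11, at 26 and 31 bp from the TSS of MED21, so these ranks are those of a peak at another promoter. In ΔZF-HA adults UQCR-11 was the gene with a listed region, at a fold enrichment of 3.03 and rank 711 of 6218. Its summit lay 61 bp upstream in a region 312 bp wide, in a list where the study saw no true peaks. In wt-HA adults with anti-HA it ranked 53 of 574, with the summit 36 bp upstream.

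UQCR-Q, another small subunit of complex III, was among the genes found in both embryo lists and in y1w1118 adults. Its fold enrichment was 6.09 in y1w1118 adults, at rank 389 of 1670. In embryos it ranked 399 of 788 (rat antibody) and 105 of 117 (rabbit antibody). No anti-HA list held it. UQCR-14 ranked 783 of 1670 in y1w1118 adults, UQCR-C2 was listed in Δ42-HA adults with anti-HA alone (rank 5695 of 6216), and the main subunit genes UQCR-6.4 and UQCR-C1 were bound nowhere.

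In complex I, 7 of 40 genes were bound in y1w1118 adults, and ND-30 (FBgn0266582), a core subunit of the peripheral arm, was the strongest of all 88, with a fold enrichment of 16.4 at rank 128 of 1670. Its region, chr3L:3159263-3160573, has its summit 438 bp upstream of the ND-30 TSS and 25 bp from the TSS of CG15812, so the peak stands at the neighbour's start. With anti-Mzfp1 ND-30 ranked 109 of 1620 for ΔM2-HA and 142 of 2008 for Δ42-HA, against 127 of 1699 in wt-HA adults. With anti-HA it ranked 62 of 6245 for ΔM2-HA, against 87 of 574 in wt-HA adults. In Δ42-HA adults with anti-HA it was the gene of the wt-HA list that was absent, because the nearest listed region began 337 bp from its TSS; that region had a fold enrichment of 3.77 at rank 1045 of 6216.

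ND-AGGG (FBgn0058002), an accessory subunit in 3L heterochromatin, had a region of its own with a summit 41 bp upstream and a fold enrichment of 5.94, rank 407 of 1670. ND-49, a core subunit gene on chromosome 4, ranked 638 with its summit 76 bp upstream. The accessory subunit genes ND-B8 and ND-SGDH ranked 663 and 763, ND-24, which encodes a core subunit, 1296, and ND-MLRQ 1323. The ND-B8 summit lay 116 bp from the TSS of ND-B8 and 57 bp from that of Secp43. In every list that held ND-B8 the summit was nearest to Secp43. ND-MLRQ is grouped here by its symbol, although its mammalian counterpart NDUFA4 is now placed in complex IV. A further 8 complex I genes were bound in other lists: ND-15, ND-18, ND-20, ND-42, ND-ASHI, ND-B14.5A, ND-B14.5B and ND-B17. Of the 25 complex I genes bound in no list, 19 were main subunit genes: ND-13A, ND-13B, ND-19, ND-23, ND-39, ND-51, ND-75, ND-ACP, ND-B12, ND-B14, ND-B14.7, ND-B15, ND-B16.6, ND-B17.2, ND-B18, ND-B22, ND-MNLL, ND-MWFE and ND-PDSW.

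In complex IV, COX8 (FBgn0263911) was the strongest main subunit gene in y1w1118 adults, with a fold enrichment of 11.2 at rank 170 of 1670. Its region also covers the start of VhaM9.7-b, but the summit lay 28 bp upstream of COX8. No anti-HA list held it. COX7A (rank 511), COX7C (547) and COX6B (593) were also bound in y1w1118 adults, each at a region shared with other genes. These were Arl2 for COX7A, oys for COX7C, and CG18809, CG33932 and Rpp20 for COX6B. The COX6B summit lay 52 bp from the TSS of COX6B and 44 bp from that of CG33932. The summit at COX7C lay 300 bp downstream of its TSS and 34 bp from the start of oys. COX5A was listed in ΔM2-HA and Δ42-HA adults with anti-HA, and COX4, COX5B and COX7B in no list.

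Of the 8 genes of complex II, 3 of them paralogues, none was bound in wt-HA adults, in y1w1118 adults or in embryos. In wt-HA adults with anti-Mzfp1 and in y1w1118 adults 14.5% and 14.6% of other genes were bound, so a count of 0 among 8 genes is not set apart from them. SdhB, the iron-sulfur subunit, was bound in ΔM2-HA adults with anti-HA (rank 1166 of 6245) and in Δ42-HA adults with anti-HA (3869 of 6216, with the summit 1084 bp downstream of its TSS). SdhA, SdhC and SdhD, the flavoprotein and membrane anchor subunits, were bound in none.

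Of the 24 paralogues 3 were bound, each in transgenic adults alone. COX7AL was bound with anti-Mzfp1 at percentile 59.2 for ΔM2-HA and 75.7 for Δ42-HA, against 48.8 in wt-HA adults. COX4L was bound with anti-HA in ΔM2-HA and Δ42-HA adults, with summits 636 and 347 bp downstream of its TSS. COX7AL2 was bound with anti-HA in ΔM2-HA adults (rank 151 of 6245) and, at another of its TSSs, in Δ42-HA adults (rank 4054 of 6216). It was also bound in wt-HA adults with anti-Mzfp1 at rank 136 of 1699 and a fold enrichment of 17.4, with the summit 786 bp downstream of its TSS. In y1w1118 adults the nearest region to COX7AL2 began 412 bp from the TSS, outside the window, with a fold enrichment of 2.19 at rank 1520 of 1670. At the limit of the window in y1w1118 adults, ATPsynD had a region 434 bp away (rank 1607). The nearest misses of all lists were ND-15 in Δ42-HA adults with anti-HA (216 bp, rank 5858) and SdhC in ΔM2-HA adults with anti-HA (255 bp). Just inside lay ATPsynE (183 bp, rank 5124) and UQCR-C2 (175 bp, rank 5695) in Δ42-HA adults with anti-HA.

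Summits lay close upstream of the TSS. In y1w1118 adults the median position relative to the TSS, negative upstream, was -43.0 bp for the 20 bound genes (quartiles -67.0 and -16.0 bp), against -49.0 bp for other bound genes (-130 and -22.0 bp). At 18 of the 20 genes (90.0%) the summit was within 200 bp of the TSS, against 77.3% of other bound genes. At 14 of the 20 the gene's own TSS was the protein-coding TSS nearest to the summit, and 7 had a region with no second gene. Neither count was made for other bound genes, so how usual they are is not known here. In Δ42-HA adults with anti-HA the median position was 146 bp downstream for the 19 bound genes, against 106 bp downstream for other bound genes. In that list 6 of the 19 summits lay within 200 bp of the TSS (31.6%), against 45.3% of other bound genes.

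**Figure D3:**
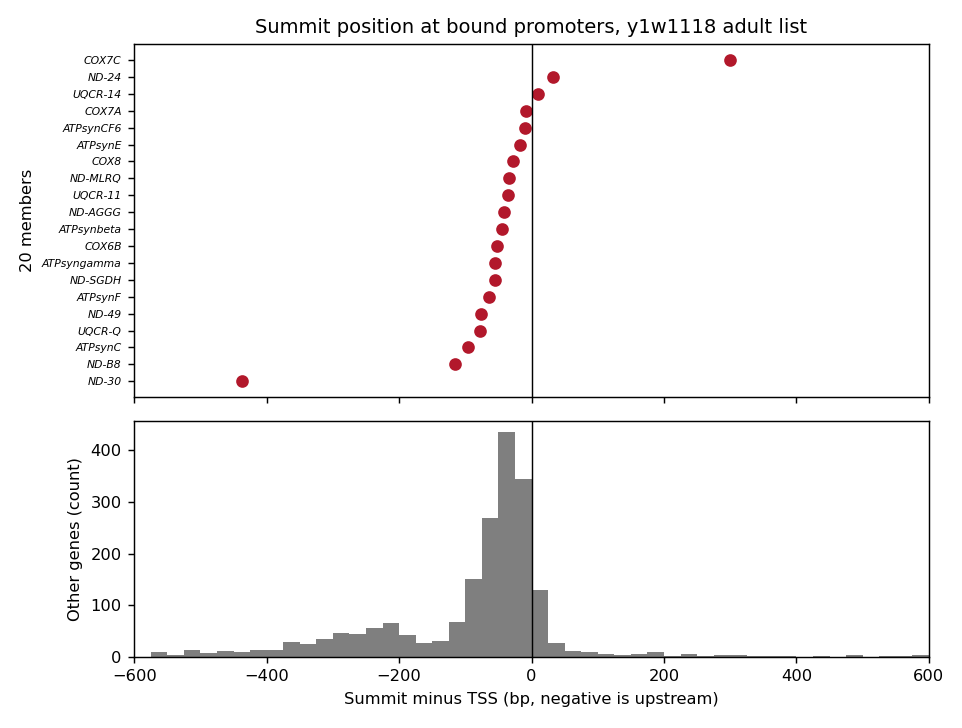
Distance of the region summit from the TSS (x axis, bp, negative is upstream) in the y1w1118 adult list. The upper panel shows the 20 bound genes, 1 point each, and the lower panel a histogram of other bound genes in bins of 25 bp, with 48 beyond 600 bp left out. The summits of ND-30 at 438 bp upstream and COX7C at 300 bp downstream lie apart from the other 18.

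TATCGATA stood within 200 bp of a TSS in 4 of the 20 genes bound in y1w1118 adults (20.0%, 8.07 to 41.6%) and in 6 of the 44 main subunit genes that were not bound (13.6%). Other genes bound in y1w1118 adults had it in 26.9% and other genes not bound in 6.77%. The share over all protein-coding promoters was 9.72%. TATCGATA was taken from an earlier report on these data, so its share among bound genes is not an independent result. The 4 bound genes are shown with the word in capitals and 10 bases on either side, on the gene's strand, because at each of them the word lay within 100 bp of the summit. The word lay that near to the summit in 20.0% of the 20 bound genes, against 23.8% of other bound genes.
ATPsynE: ccaatacaacTATCGATAgccgcctgtc
COX7A: gacatcgatgTATCGATAatacatcgat
ND-SGDH: tctctgctgtTATCGATAtatcaaaaca
UQCR-14: gagtgcgataTATCGATAggtgcagtgt
These sites are at chr3R:14327040-14327067 (plus strand), chr3R:8341028-8341055 (minus), chr3L:12138503-12138530 (minus) and chrX:16286216-16286243 (plus) in dm6, and the centre of the word was 4, 10, 12 and 68 bp from the summit. Of the 64 main subunit genes, 10 had TATCGATA. Of these 10, 8 were bound in some list, and COX4 and ND-19 were not. At ND-B14.5B the summits lay nearest to toc, and at ND-ASHI the summit lay 8 bp from the TSS of Fum1. TATCGATA stood in 25.8% of the 31 main subunit genes bound in some list (13.7 to 43.2%), against 17.9% of other genes bound in some list. Of the 5 genes bound in Δ42-HA but not in wt-HA adults with anti-Mzfp1, ND-15, ND-ASHI and ND-B14.5A had it and ND-20 and ND-24 did not (60.0%, 23.1 to 88.2%), against 29.8% of 480 other genes.

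Motif 1 stood in 3 of the 20 bound genes (15.0%) and in 14 of the 44 main subunit genes not bound in y1w1118 adults (31.8%); the Wilson intervals overlap. Other genes had it in 8.49% when bound and 5.28% when not bound, and 5.83% of all protein-coding promoters had it. Of the 31 main subunit genes bound in any list 19.4% had Motif 1, against 11 of the 33 bound in no list (33.3%). The genes bound in y1w1118 adults that had it were ATPsynC, ND-SGDH and UQCR-Q, and the centre of Motif 1 lay 66 bp from the summit at ATPsynC and 48 bp at ND-SGDH. None of the 24 paralogues had TATCGATA or Motif 1. Sites of ATPsynC and of 3 genes bound in no list are shown with Motif 1 in capitals and 10 bases on either side, in either orientation.
ATPsynC: actactgttaTGGTCACACTgcgcctattg
ATPsynD: ggcagctgatAGTGTGACCGacccgagggt
ND-39: tgctacgccaCGGTCACACTgtcgtggggc
ND-13A: ttaaataaccAGTGTGACCGctgatcggta
They are at chr3R:31219778-31219807 (minus strand), chr3R:19094884-19094913 (plus), chr3L:20495363-20495392 (plus) and chr2L:5100261-5100290 (minus) in dm6. The NRG element was found in 2 of the 88 genes, ATPsynC and COX6B, both bound in y1w1118 adults, and in 0.444% of all protein-coding promoters; it lay more than 100 bp from the summit in both. A match here is a description of the letters in the window and not of a bound site.

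**Figure D4:**
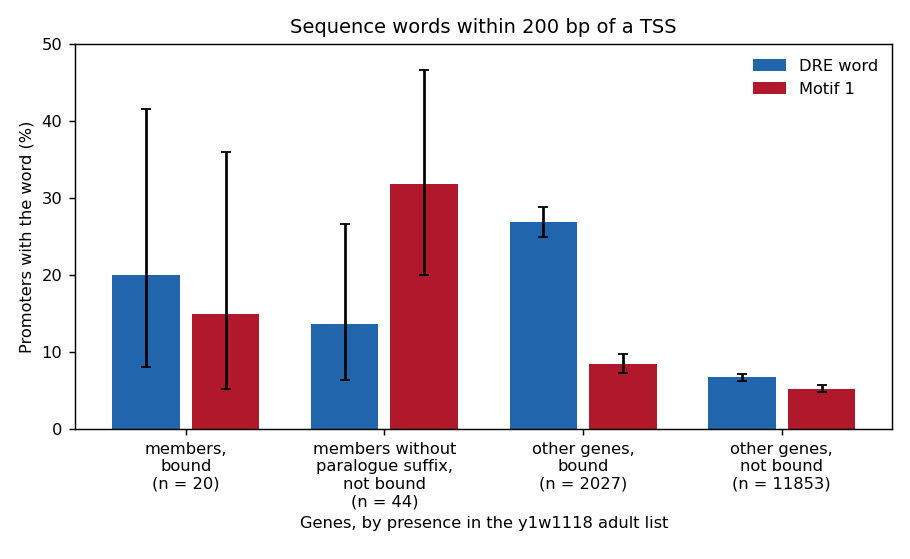
Percentage of promoters with TATCGATA (DRE word, left bar of each pair) and with Motif 1 (right bar) within 200 bp of a TSS, by presence in the y1w1118 adult list, with 95% Wilson intervals. Motif 1 is at 15.0% in the 20 bound genes and at 31.8% in the 44 main subunit genes not bound, and the DRE word is at 26.9% in other bound genes.

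The wt-HA and y1w1118 adults addressed how Mzfp1 placement differs when a tagged copy is added. Of the 88 genes 19 were bound in both anti-Mzfp1 lists, of 23 in the wt-HA list and 20 in the y1w1118 list; of other genes the wt-HA list shared 83.7% and the y1w1118 list 83.3%. COX7AL, COX7AL2, ND-42 and ND-B14.5B were bound in wt-HA and not in y1w1118 adults, and ND-24 in y1w1118 and not in wt-HA adults. Ranks moved with chromosomal position. All 5 bound genes of heterochromatin or chromosome 4 ranked higher in wt-HA adults, with a median percentile of 91.3 against 61.8 in y1w1118 adults. ND-MLRQ was at 91.3 against 20.8, ND-49 at 90.7 against 61.8, ATPsynbeta at 82.8 against 59.4, ND-AGGG at 94.1 against 75.7 and UQCR-11 at 96.8 against 90.1.

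The 14 other genes bound in both lists went lower on balance, with a median percentile of 52.1 in wt-HA adults against 65.9 in y1w1118 adults, and 4 of the 14 ranked higher. UQCR-Q was at 43.0 against 76.8 and COX7A at 51.2 against 69.5, whereas COX7C was at 89.6 against 67.3. Other genes showed the same split: 76 of 95 genes of heterochromatin or chromosome 4 ranked higher in wt-HA adults (80.0%), against 34.4% of 1593 other genes elsewhere. Regions were also wider: the median ratio of widths, wt-HA over y1w1118, was 3.73 for the 5 genes, with 5.50 the highest, and 0.977 for the 14. At UQCR-11 the region was 2551 bp wide in wt-HA adults and 584 bp in y1w1118 adults. The summit of the wide region at ND-MLRQ lay 65 bp from the TSS of its neighbour alpha-Cat and 1161 bp from ND-MLRQ, while in y1w1118 adults a region of 326 bp had its summit 34 bp from ND-MLRQ. Both lists used anti-Mzfp1; Mzfp1 amount, tag and balancer chromosomes cannot be told apart here.

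**Figure D5:**
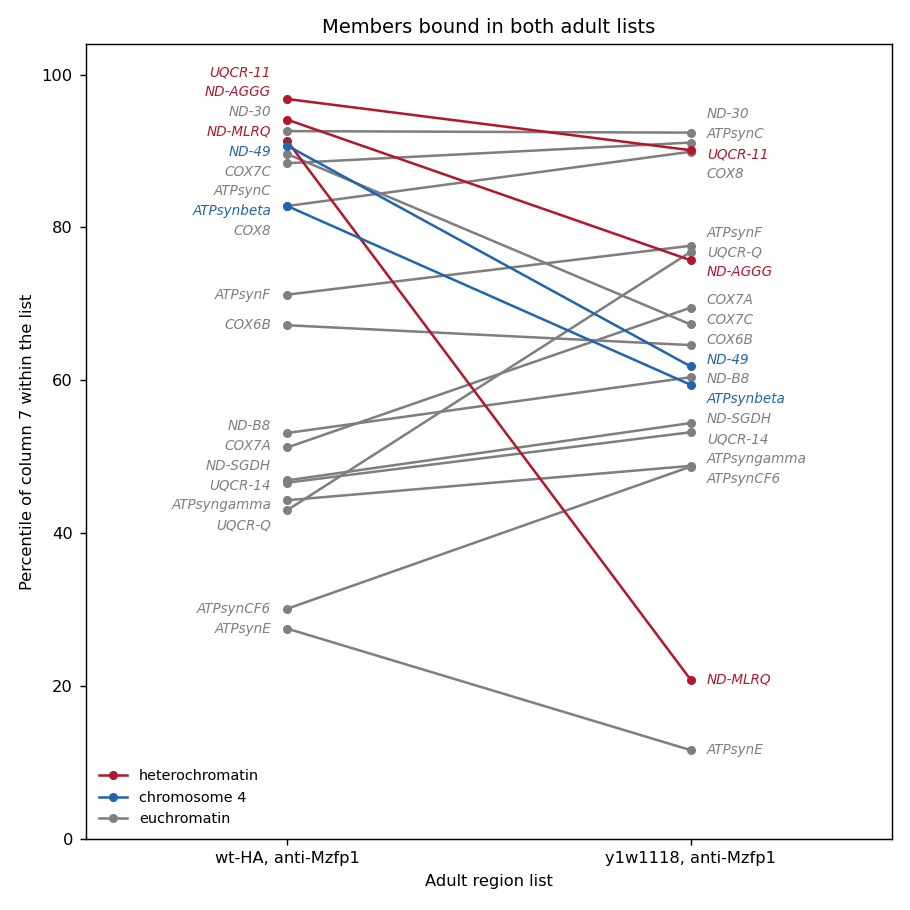
Percentile of column 7 (y axis) of the 19 genes bound in both adult anti-Mzfp1 lists, in wt-HA adults (left) and y1w1118 adults (right). Lines join the same gene; colours give heterochromatin, chromosome 4 and other euchromatin. All 5 lines of heterochromatin and chromosome 4 are higher on the left, and ND-MLRQ is at 91.3 on the left and 20.8 on the right.

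The variants addressed which parts of Mzfp1 placement needs. With anti-Mzfp1, ΔM2-HA adults held 18 of the 23 genes of the wt-HA list and no gene beyond it; ATPsynE, COX7AL2, ND-42, ND-B14.5B and ND-MLRQ were missing. Of other genes it held 76.6% of the wt-HA list, and 86.8% of the other genes bound in ΔM2-HA adults were in the wt-HA list. The 4 genes of heterochromatin or chromosome 4 bound in both lists all ranked lower in ΔM2-HA adults, with a median percentile of 66.5 against 92.4 in wt-HA adults, and 10 of 91 other genes of these regions (11.0%) ranked higher. ND-49 was at 45.8 against 90.7. Of the 14 others 8 ranked higher in ΔM2-HA adults, with a median difference within genes of 1.76 points (-21.7 to 24.6), against 67.4% of other euchromatic genes. Set beside y1w1118 adults, the same 4 genes were at 66.5 against 68.8. Δ42-HA adults held 20 of the 23 wt-HA genes and 5 more, ND-15, ND-20, ND-24, ND-ASHI and ND-B14.5A, and lacked ATPsynE, COX7AL2 and ND-42. Of other genes it held 90.7% of the wt-HA list. Of the 15 euchromatic genes bound in both lists, 14 had a higher percentile in Δ42-HA adults, with a median of 75.7 against 53.1. The percentile was also higher for 78.6% of 1712 other euchromatic genes. The Δ42-HA list was longer (2008 against 1699 regions), which can raise percentiles. By rank ND-30 (142 against 127), COX6B (584 against 558) and COX7C (334 against 177) stood lower in Δ42-HA adults, and the rest of the 15 stood higher. The anti-Mzfp1 antibody could take endogenous Mzfp1 in these lines, and the part of the variant protein cannot be told apart from it.

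With anti-HA, which is directed at the tag, ΔM2-HA adults held all 9 genes of the wt-HA list and 10 more. They also held 86.8% of the other genes in the wt-HA list. The ΔZF-HA list was of like length (6218 regions), and whether genes added in the variant lists carried the variant protein was not tested. Δ42-HA adults held 8 of the 9, all but ND-30, and 11 more, and 83.7% of the other genes in the wt-HA list. Of the added genes, 9 were the same in both variants. Of the genes bound for ΔM2-HA, 89.5% of those among the 88 and 58.0% of other genes were bound for Δ42-HA. The variant lists were more than 10 times as long as the wt-HA list, and 47.4% of the ΔM2-HA genes and 42.1% of the Δ42-HA genes were shared with wt-HA. Of other genes 427 of 2284 in the ΔM2-HA list and 412 of 1962 in the Δ42-HA list were. The 5 highest of the 88 genes in ΔM2-HA adults were UQCR-11, ND-30, ND-49, ND-AGGG and ND-MLRQ, and in Δ42-HA adults UQCR-11, ND-AGGG, ND-MLRQ, ND-49 and COX7C, with UQCR-11 in both by the broad region that peaks at MED21. ND-MLRQ was at rank 114 of 6245 for ΔM2-HA and 114 of 6216 for Δ42-HA, with both summits at alpha-Cat, against 554 of 574 in wt-HA adults, with the summit 43 bp from ND-MLRQ. ΔZF-HA adults held UQCR-11 and lacked the other 8 wt-HA genes: ATPsynC, ATPsynbeta, COX7C, ND-30, ND-49, ND-AGGG, ND-B8 and ND-MLRQ. Among other genes the ΔZF-HA list held 31.5% of those in the wt-HA list, against 11.1% of these 9 genes. The study saw no true peaks for ΔZF-HA, so these shared regions need not be binding. All 9 wt-HA genes found with anti-HA were also in the wt-HA list with anti-Mzfp1, as were 92.1% of other genes. The anti-Mzfp1 list held 14 more of the 88. Of the genes in it, 39.1% of those among the 88 and 22.5% of other genes were found with anti-HA.

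Adults and embryos of y1w1118 addressed the stage. All 9 genes bound in embryos with the rat antibody were bound in adults, as were 90.7% of other genes bound in embryos. The 9 were ATPsynC, UQCR-11, COX6B, ATPsynbeta, ATPsynF, COX8, UQCR-Q, ND-SGDH and ND-B8, from rank 125 to rank 676 of 788. The adult list held 11 more, among them ND-30, the strongest in adults, and the heterochromatic ND-AGGG and ND-MLRQ. ATPsynC and UQCR-Q were bound in adults and in embryos with either antibody. Adult and embryo lists also differed in sequencing mode, library number and thresholds, and their part in these counts was not tested.

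The oxidative phosphorylation genes were set beside the ribosomal protein genes. In y1w1118 adults the bound share was 22.7% for the 88 genes, 34.2% for 73 mitochondrial ribosomal protein genes (24.4 to 45.7%) and 60.9% for 92 cytoplasmic ribosomal protein genes (50.7 to 70.2%). The interval for cytoplasmic ribosomal protein genes lies above that of the 88 genes, and that for mitochondrial ribosomal protein genes overlaps it. Of the 10 subunit and cytochrome c genes outside the symbol rule, 4 were bound in y1w1118 adults. The strongest was sun, which encodes the epsilon subunit of complex V, with a fold enrichment of 29.4 at rank 86 of 1670, above ND-30, and it was bound in 8 of the 10 lists. The others were levy, a subunit of complex IV, at rank 360, blw, the alpha subunit of complex V, at rank 1398, and Cyt-c1 at rank 1495.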

How the data were processed

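Binding was measured by ChIP-seq in 23 libraries, 18 ChIP and 5 controls. Per the labels and the study's methods, reads were trimmed with cutadapt, aligned to dm6 with Bowtie2 (adults, paired) or bowtie (embryos, single), filtered with Picard and a blacklist, and called with MACS2 at p 1e-05 in embryos and p 0.01 in adults, followed by IDR at 0.05 between replicates and 0.01 between pseudoreplicates. Column 7 of the deposited lists is a fold ratio over control and column 8 a −log10 p as the authors deposited them. A further 64 columns of IDR input values were not used. Controls were preimmune; which library served which list, and the read depth, are not given in the sources used here. TSSs came from Ensembl release 115 protein-coding transcripts (19630 TSSs); chromosome lengths of its assembly are those of dm6. Overlaps of at least 1 bp were counted with Python 3.11.15 code that was tested on simulated data. Heterochromatin limits followed the study. Words were searched in dm6 sequence from RefSeq. Genes are named by a rule: the 12 highest in y1w1118 adults, genes of the rabbit embryo and ΔZF-HA lists, wt-HA anti-HA genes that a variant anti-HA list lacks, genes bound in all 3 untagged lists, and genes bound in no list by complex; others named were chosen after their values were seen. The genes, the lists and the word TATCGATA were chosen with earlier results of these data known. No test was run, since each group has 1 list.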

Additional observations from a re-analysis of the deposited data

How the results depend on the processing

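The 10 differences in bound share kept their sign under each of 10 alternatives (100 values), and all values stayed within the intervals of the reported ones. In Δ42-HA adults with anti-HA the difference was 7.46 points as reported and 0.183 points with the summit required in the window. In y1w1118 adults the difference ranged from 3.42 points, with the list limited to its 500 strongest regions, to 16.6 points without the paralogues. It was 4.05 points among genes whose windows overlap no other gene's, where 7 of 51 genes were bound (13.7%) against 9.67%, and 4.15 without heterochromatin and chromosome 4, an alternative chosen after seeing the data. Of 48 values for the difference in median percentile, in the 8 lists with enough bound genes for an interval, 46 stayed within it and 6 had the other sign. For genes with windows of their own the difference was 33.9 in y1w1118 adults (7 genes) and 30.2 in ΔM2-HA adults with anti-Mzfp1 (6 genes), outside the intervals; the cause was not tested. Leaving out single replicates could not be run because each list pools its libraries. No paired analysis was possible because each adult list is a pool of its replicates and no result comes from a test. Precision is limited by the 88 genes and by unknown depth.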

Other observations

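Other mitochondrial gene groups were bound in y1w1118 adults as follows. Of 14 genes of mitochondrial protein import 5 were bound (35.7%, 16.3 to 61.2%): Tim17b, Tim23, Tim8, Tom20 and Tom70. Their median percentile was 96.3, against 63.2 for the oxidative phosphorylation genes. Of 15 genes of the TCA cycle and pyruvate dehydrogenase 6 were bound (40.0%, 19.8 to 64.3%): Idh3a, Idh3b, Ogdh, Scsalpha1, ScsbetaA and muc, with a median percentile of 50.6. Of 11 assembly factor genes 5 were bound, Coa7, Cox17, Nubpl, Scox and Ttc19, with a median percentile of 30.1. These lists hold the symbols found in the annotation, 14 of 25 for import, 15 of 18 for the TCA cycle and 11 of 20 for assembly factors, and the intervals cover counting error only.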
